A study of Mus musculus with 2 samples.

Results

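The 45 genes described here code for the proteins that copy DNA in S phase, from the helicase and its loaders to the polymerases, the sliding clamp, chromatin assembly factor 1, the enzymes that make deoxynucleotides and the regulators of entry into S phase. They were chosen by name, by their role in replication, with earlier results of these data known. All 45 were among the 18159 gene symbols with an mRNA value. RNA came from the tunica muscularis, the muscle wall, of the jejunum of mice 15 days old (P15), peeled from the mucosa, with 1 library for *Dnmt1*-WT and 1 for *Dnmt1*-KO. DNMT1 is the enzyme that restores DNA methylation on newly copied DNA, and the study asked what its loss does to developing gastrointestinal smooth muscle.

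Both genotypes were on a C57BL/6 background and carried Cre and eGFP under the *Myh11* (smMHC) promoter, which is active in smooth muscle cells. In *Dnmt1*-KO mice the deletion of the floxed *Dnmt1* alleles was designed to be restricted to these cells. *Dnmt1* in the other cells of the wall was not measured separately here. The paper describes the *Dnmt1*-WT mice as carriers of Cre-eGFP alone, whereas the strain label names Dnmt1lox/lox for both samples. A free-text label names the knockout for both as well, and the groups follow the title and the genotype label. RNA of 4 mice, 2 male and 2 female, stood behind each genotype according to the methods, and how it was combined is not given in the sources used here. *Dnmt1* itself was 34.5% lower in the *Dnmt1*-KO library, at 11.58 FPKM without and 7.58 FPKM with the deletion. Below, values are given first for *Dnmt1*-WT and then for *Dnmt1*-KO where a sentence does not name the library. FPKM are fragments per kilobase of transcript scaled to the mapped total of the library, so levels of different genes can be compared per length. With 1 library per genotype there is no replicate check on any difference, no test was made, and read counts behind single genes are unknown.

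Replication begins when the origin recognition complex, CDC6 and CDT1 load the MCM2-7 helicase on DNA in G1. In S phase CDC45, GINS and MCM10 switch the helicase on, polymerase alpha with primase starts each strand, and polymerases delta and epsilon extend it on the PCNA clamp. Many of these genes are targets of E2F transcription factors, and they are expressed in dividing cells and low in cells that have left the cell cycle.

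In the *Dnmt1*-KO library 35 of the 45 genes stood higher than in *Dnmt1*-WT and 10 lower. Across all 16102 genes above 0 FPKM in both libraries, 50.3% were higher in *Dnmt1*-KO. The ratio, always the *Dnmt1*-KO value over the *Dnmt1*-WT value, was at least 1.5 for 17 of the 45 genes, or 37.8%, against 19.7% of all genes. As deposited it was at least 2 for 5 of them, *Mcm10*, *Orc1*, *Tk1*, *Gins2* and *Gins1*, while 11.8% of all genes reached that ratio, so the share of the replication genes that reached 2 was close to the background. Only *Tk1* reached 2 with 1 FPKM added to each value. As deposited, no replication gene was at 1/1.5 or less, against 12.6% of all genes, although *Ccne2* lay at that limit within the rounding of its values and other scalings and centrings put 1 or 2 genes there. None was at 0.5 or less, against 4.98%. The median ratio was 1.27, with a range from 0.669 for *Ccne2* to 3.38 for *Mcm10*, both low in expression. On the log2 scale of FPKM + 0.1 the median was 0.34, beside -0.01 over the 13865 genes with at least 1 FPKM in one library.

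**Figure D1:**
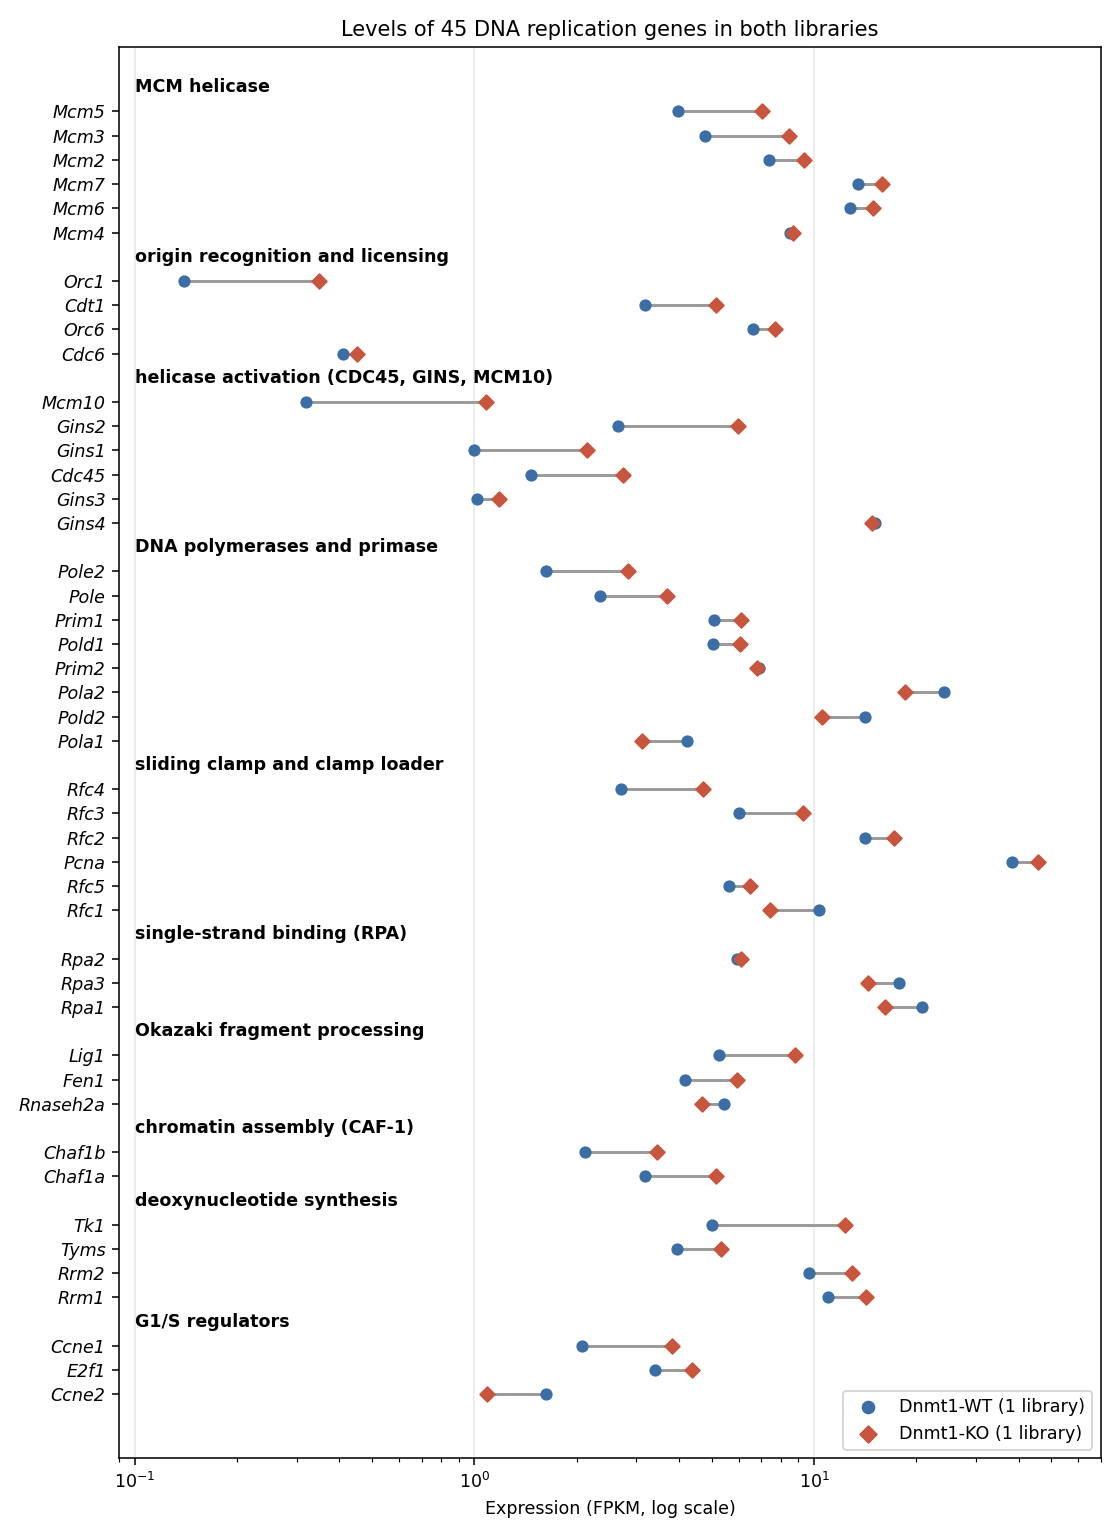
Expression in FPKM on a log scale of each of the 45 replication genes in both libraries (circles *Dnmt1*-WT, diamonds *Dnmt1*-KO), grouped by role and ordered by ratio. In 35 rows the diamond lies to the right of the circle, and all 6 MCM helicase genes are among them, though *Mcm4* would not be with the FPKM sums set equal.

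The promoters of these genes give the sequence context. RefSeq windows on GRCm38.p6, 250 bases before and 50 bases after the annotated start, were matched for 37 of the 45 genes. They were searched on both strands for 4 forms of the E2F motif (TTTCCCGC, TTTCGCGC, TTTGCCGC and TTTGGCGC), and overlapping matches were counted separately. At least 1 form was present for 13 of the 37 genes, or 35.1%. Among all 27025 genes with windows of this length 2.60% held one, and among the 10347 with at least 1 FPKM in one library 4.47% did. The 13 genes were *Cdc6*, *Cdt1*, *Gins3*, *Lig1*, *Mcm3*, *Mcm5*, *Mcm6*, *Mcm7*, *Orc1*, *Pola1*, *Pold1*, *Pole2* and *Rfc3*. Their median ratio was 1.54, and 12 were higher in *Dnmt1*-KO. The 24 genes whose window held no form had a median ratio of 1.27, and 18 of them were higher. For the 8 genes without a matched window the median ratio was 1.12, and 5 were higher. The differences between these groups were not tested.

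Of the motif-holding genes with at least 1 FPKM in one library, those with the highest and the lowest ratios are printed, so that promoters at either end of the response can be compared. Each runs 5′ to 3′ on the strand of its gene from 250 bases before the start, and capitals mark the motif or its reverse complement.
*Mcm5*, chr8:75109259-75109558, plus strand: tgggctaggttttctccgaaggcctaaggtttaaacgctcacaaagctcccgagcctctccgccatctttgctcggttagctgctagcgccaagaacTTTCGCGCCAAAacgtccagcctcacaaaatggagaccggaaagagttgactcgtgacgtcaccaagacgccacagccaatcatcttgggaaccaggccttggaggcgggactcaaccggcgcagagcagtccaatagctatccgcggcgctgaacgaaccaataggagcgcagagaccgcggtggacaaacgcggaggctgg
*Mcm3*, chr1:20820263-20820562, minus strand: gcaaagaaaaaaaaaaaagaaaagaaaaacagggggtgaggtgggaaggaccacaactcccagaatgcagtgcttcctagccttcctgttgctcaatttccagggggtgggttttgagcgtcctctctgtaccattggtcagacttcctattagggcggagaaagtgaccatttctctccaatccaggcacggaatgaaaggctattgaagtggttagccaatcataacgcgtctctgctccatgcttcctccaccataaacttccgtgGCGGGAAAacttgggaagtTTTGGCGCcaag
*Gins3*, chr8:95633309-95633608, plus strand: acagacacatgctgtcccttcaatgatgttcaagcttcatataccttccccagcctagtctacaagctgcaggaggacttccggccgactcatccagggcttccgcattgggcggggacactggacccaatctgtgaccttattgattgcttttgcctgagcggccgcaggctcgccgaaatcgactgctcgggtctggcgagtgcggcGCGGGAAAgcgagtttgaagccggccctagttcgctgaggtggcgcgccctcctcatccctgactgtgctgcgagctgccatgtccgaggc
*Pola1*, chrX:93632106-93632405, minus strand: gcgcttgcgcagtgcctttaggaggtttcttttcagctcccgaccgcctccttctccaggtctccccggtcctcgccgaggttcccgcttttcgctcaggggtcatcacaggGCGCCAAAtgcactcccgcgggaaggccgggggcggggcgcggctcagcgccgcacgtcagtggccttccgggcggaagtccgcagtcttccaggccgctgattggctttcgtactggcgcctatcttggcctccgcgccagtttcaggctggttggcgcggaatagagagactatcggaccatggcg

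In the *Mcm5* window TTTCGCGC began at position -153, counted from 1 at the RefSeq start. TTTGGCGC, on the opposite strand, began at -149, so that both share bases. GENCODE places some starts elsewhere. Its *Mcm5* gene begins at 75109569, after the end of the window. Its *Gins3* gene begins at 95633453, inside the window and before the motif. In the *Mcm3* window both forms lay after the start, TTTCCCGC on the opposite strand at 20 and TTTGGCGC at 39. The *Gins3* window held TTTCCCGC on the opposite strand at -41, and the *Pola1* window held TTTGGCGC on the opposite strand at -138. *Mcm5* and *Mcm3* were each 1.77 times as high in *Dnmt1*-KO, *Gins3* 1.16 times and *Pola1* 0.736 times, so a motif was present at high and at low ratios. A match of letters is a description of the window and no evidence of binding. Windows of the replication genes held a median of 23.5 CG dinucleotides, the sites DNMT1 methylates. This was near the 20 in windows of genes with at least 1 FPKM in one library, against 7 in all windows. Single windows differed widely, with 8 for *Tk1* and for *Mcm3* and 48 for *E2f1*. Methylation of the windows was not examined here.

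All 6 subunits of the MCM2-7 helicase, which unwinds the DNA ahead of the fork, were higher in *Dnmt1*-KO as deposited, with a median log2 ratio of 0.29, and *Mcm4* alone was lower, at a ratio of 0.953, when the FPKM sums of the libraries were set equal. *Mcm3* (1:20802968-20820312, minus strand, GRCm38) was 4.77 and 8.42 FPKM and *Mcm5* (8:75109569-75128439, plus strand) was 3.97 and 7.01 FPKM. The other subunits differed less. *Mcm2* was 7.36 and 9.32 FPKM, *Mcm6* was 12.76 and 14.9, and *Mcm7* was 13.44 and 15.82. Another gene, *Gm5487*, is 97.7% identical to *Mcm7* over 2157 bases. *Mcm7* also shares 1.45% of its exon bases with *Cops6* on the opposite strand, which was 72.37 and 78.23 FPKM. *Mcm4* was nearly level at 8.47 and 8.66 FPKM. The proteins form a ring with one copy of each, and at the mRNA level the highest subunit stood 3.39 times above the lowest in *Dnmt1*-WT and 2.26 times in *Dnmt1*-KO. The levels of the subunits were thus closer to each other in the *Dnmt1*-KO library. This was not particular to the helicase. Among the complexes described below, the same factor was 15.1 and 12.6 for GINS, 5.23 and 3.65 for RFC, and 3.48 and 2.64 for RPA.

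The licensing genes were higher in 4 of 4 cases. *Cdt1*, which brings MCM2-7 to origins, was 3.17 and 5.13 FPKM, a ratio of 1.62. *Orc6*, a subunit of the origin recognition complex, was 6.59 and 7.7 FPKM. *Orc1*, the subunit that comes and goes with the cell cycle, was 0.14 and 0.35 FPKM, and *Cdc6*, which loads the helicase with it, was 0.41 and 0.45 FPKM. These 2 genes were under 1 FPKM in both libraries, where small differences give large ratios. The 2 decimals of the *Orc1* values alone allow a ratio between 2.38 and 2.63, and with 1 FPKM added to each value its ratio is 1.18. *Orc1* also shares 10.8% of its exon bases with *Gm12743* on the opposite strand. *Cdc6* is 95.2% identical to *Gm9430* over 1260 bases.

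Genes that switch the helicase on had the highest median of the 10 roles, with 5 of 6 higher and a median log2 ratio of 0.94. *Mcm10* (2:4989714-5012791, minus strand), a scaffold for the assembling fork, was 0.32 and 1.08 FPKM, and with 1 FPKM added to each value its ratio is 1.58 in place of 3.38. *Cdc45*, the helicase cofactor, was 1.47 and 2.74 FPKM, a ratio of 1.86. The GINS complex has 4 subunits, and their ratios differed. *Gins1* was 1 and 2.15 FPKM, and *Gins2* (8:120578633-120589304, minus strand) was 2.65 and 5.98, ratios of 2.15 and 2.26. *Gins3* was 1.02 and 1.18 FPKM. *Gins4* was the most abundant subunit in both libraries at 15.11 and 14.84 FPKM and was nearly level, a ratio of 0.982 that crosses 1 under other scalings. The ratio of *Gins2* to *Gins4* within a library was accordingly 0.175 in *Dnmt1*-WT and 0.403 in *Dnmt1*-KO. *Gins2* shares 67.3% of its exon bases with *Gse1* on the opposite strand, which was 13.68 and 12.66 FPKM, and as the sources do not state strand-aware counting, reads of the pair may not have been told apart.

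The polymerase genes differed in direction, in part within one complex. In polymerase epsilon, which extends the leading strand, *Pole*, the catalytic subunit, was 2.35 and 3.68 FPKM and *Pole2* was 1.62 and 2.83 FPKM, ratios of 1.57 and 1.75. Its small subunits, which are not among the 45 genes, were more abundant and did not share this ratio, with *Pole3* at 15.72 and 16.52 FPKM and *Pole4* at 25.14 and 22.47 FPKM. In polymerase alpha, which lays down the first DNA after the primer, both subunits beside primase were lower, with *Pola1* at 4.24 and 3.12 FPKM and *Pola2* at 24.17 and 18.54 FPKM, ratios of 0.736 and 0.767. The ratio of *Pole* to *Pola1* within a library was 0.554 in *Dnmt1*-WT and 1.18 in *Dnmt1*-KO, so the order of the catalytic subunits was inverted as deposited. With GC centring the ratios of *Pole* and *Pola1* lay closer together, at 1.53 and 0.917. The inversion was not recomputed with that centring and may not hold there. Of the primase subunits, which work with polymerase alpha, *Prim1* was higher, at 5.09 and 6.11 FPKM, and *Prim2* was nearly level at 6.89 and 6.81 FPKM, a ratio that crosses 1 under other scalings. In polymerase delta, which extends the lagging strand, the catalytic *Pold1* was 5.05 and 6.05 FPKM, and the accessory *Pold2* was 14.15 and 10.52 FPKM. The remaining delta subunits, also outside the 45, differed from each other in direction, with *Pold3* at 7.12 and 5.01 FPKM and *Pold4* at 17 and 26.67 FPKM. As deposited, 4 of the 8 polymerase and primase genes among the 45 were higher, and their FPKM summed to 63.56 and 57.66.

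*Pcna*, the sliding clamp, which also recruits DNMT1 to the fork, was the most abundant of the 45 transcripts in both libraries, at 38.31 and 45.52 FPKM. Its ratio of 1.19 was modest, and a processed copy, *Pcna-ps2*, is 99.2% identical over 781 bases. The clamp loader RFC has a large subunit and 4 small ones, and the large one differed in direction from the rest. *Rfc1*, the large subunit, was 10.33 and 7.44 FPKM. The small subunits were all higher, *Rfc4* at 2.7 and 4.71 FPKM, *Rfc3* at 6.01 and 9.28, *Rfc2* at 14.11 and 17.17 and *Rfc5* at 5.63 and 6.46. The ratio of *Rfc4* to *Rfc1* within a library was 0.261 and 0.633. *Rfc4* shares 12.7% of its exon bases with *Eif4a2* on the opposite strand, which was 129.39 and 84.58 FPKM. *Rfc2* shares 15.1% with *Lat2* (1.22 and 1.49 FPKM) and *Rfc5* 10.7% with *Wsb2* (34.69 and 36.55 FPKM) in the same way.

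RPA, the trimer that coats single-stranded DNA in replication and in repair, was the group with the lowest median, -0.30 on the log2 scale. *Rpa1* was 20.72 and 16.16 FPKM and *Rpa3* was 17.77 and 14.42 FPKM, ratios of 0.780 and 0.811. *Rpa2* was nearly level at 5.95 and 6.11 FPKM, and it was lower, at a ratio of 0.957, with the FPKM sums set equal.

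Of the genes that finish Okazaki fragments, the short pieces of the lagging strand, *Lig1*, the ligase that seals them, was 5.24 and 8.78 FPKM, a ratio of 1.68. *Fen1*, the flap endonuclease, was 4.18 and 5.92 FPKM, and *Rnaseh2a*, which removes RNA paired with DNA, was 5.44 and 4.67 FPKM. As deposited, both large subunits of chromatin assembly factor 1, which places histones on the new DNA, were higher by nearly the same factor. *Chaf1a* was 3.19 and 5.15 FPKM and *Chaf1b* 2.11 and 3.45 FPKM, ratios of 1.61 and 1.64. The ratio of *Chaf1b* to *Chaf1a* was 0.661 and 0.670 in the respective libraries. Centring moved them apart, to 1.88 for *Chaf1a* and 1.53 for *Chaf1b* with length centring, and to 1.49 and 1.63 with GC centring. *Fen1* shares 78.8% of its exon bases with *Gm10143*, and *Chaf1a* 52.5% with *Ubxn6*, which was 42.31 and 38.97 FPKM, in each case on the opposite strand. *Fen1* also shares 5.37% with *Tmem258* on that strand, a far more abundant transcript at 186.14 and 245.34 FPKM.

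All 4 genes of deoxynucleotide synthesis were higher, and their FPKM summed to 29.62 and 44.78. *Tk1* (11:117815526-117826092, minus strand), the thymidine kinase of dividing cells, was 5.02 and 12.3 FPKM, a ratio of 2.45. *Tyms*, the thymidylate synthase, was 3.94 and 5.32 FPKM. Stretches of its transcript are near-identical to 19 other genes. The subunits of ribonucleotide reductase were higher by similar factors, *Rrm1* at 11.02 and 14.19 and *Rrm2* at 9.64 and 12.97 FPKM, ratios of 1.29 and 1.35. *Rrm2* is 95.5% identical to *Gm48455* over 419 bases. *Rrm2b*, the alternative small subunit used outside S phase, was lower, at 7.86 and 4.66 FPKM, so the ratio of *Rrm2* to *Rrm2b* was 1.23 in *Dnmt1*-WT and 2.78 in *Dnmt1*-KO.

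The regulators of entry into S phase were not uniform. *Ccne1*, cyclin E1, was 2.08 and 3.83 FPKM, and *Ccne2*, cyclin E2, 1.63 and 1.09 FPKM. Its ratio of 0.669 is 0.795 with 1 FPKM added, 0.681 with length centring and 0.850 with GC centring. Under each of these *Ccne2* is no longer the lowest of the 45 genes. The ratio of *Ccne1* to *Ccne2* was 1.28 in *Dnmt1*-WT and 3.51 in *Dnmt1*-KO. *Ccne2* shares 17.4% of its exon bases with *Ints8* on the opposite strand, which was itself lower, at 16.42 and 6.18 FPKM, and the part of these reads in the *Ccne2* values was not tested. *E2f1*, an activating E2F factor, was 3.41 and 4.36 FPKM, a ratio of 1.28.

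The ratios were closer to 1 among the abundant transcripts. Among the 11 replication genes with a geometric mean above 10 FPKM, 6 were higher in *Dnmt1*-KO and none reached a ratio of 1.5, against 47.0% and 9.36% of all genes at that level. Among the 31 with a geometric mean of 1 to 10 FPKM, 26 were higher against 49.0% of all such genes, 15 (48.4%) reached 1.5 against 19.2%, and 3 reached 2 against 10.8%. The remaining 3, *Orc1*, *Cdc6* and *Mcm10*, had a geometric mean under 1 FPKM. Spearman's rho of geometric mean and ratio across the 45 genes was -0.46, and -0.15 across the 13844 genes with a geometric mean of 0.2 to 50 FPKM. Genes are not independent replicates, both measures use the same libraries, and no p-value is given. The order of levels was largely kept, with a rho of 0.94 between the 45 levels of one library and those of the other.

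**Figure D2:**
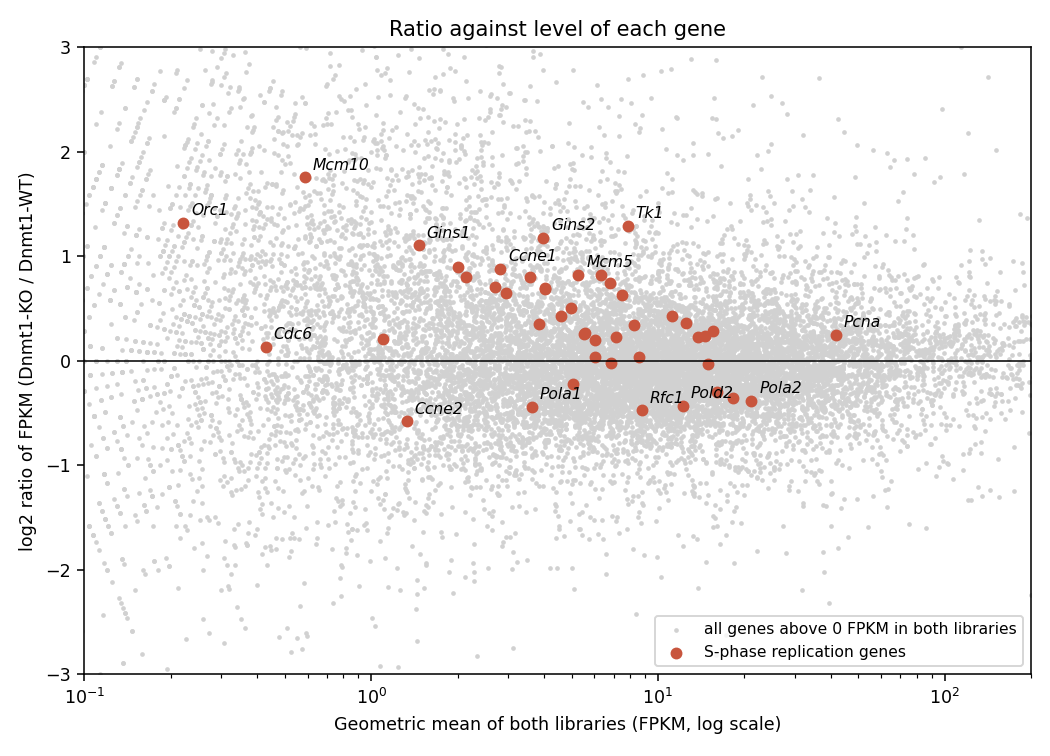
log2 ratio of FPKM (*Dnmt1*-KO over *Dnmt1*-WT) against the geometric mean of both libraries on a log scale, for all genes above 0 FPKM in both libraries (grey) and the 45 replication genes (red, some named). The axes leave out genes beyond their limits, none of them a replication gene, and the 11 replication genes above 10 FPKM lie at ratios between 0.743 and 1.35.

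Related genes were set beside these. Of 42 other genes of replication forks and origins, 23 (54.8%) were higher, near the 50.3% of all genes, and 19 lower. At a ratio of 1.5 or more were 12 (28.6%), against 19.7% of all genes. Their median log2 ratio was 0.06, or -0.0389 with the FPKM sums set equal. Ordered by the ratio of FPKM + 1, as for the lists that follow, the highest were *Gmnn*, the inhibitor of CDT1 (2.39 and 5.03 FPKM), *Asf1b*, a histone chaperone (1.91 and 3.67), and *Dbf4*, the activator of the kinase CDC7 (1.14 and 2.4). The lowest were *Rmi1*, which helps dissolve linked DNA (5.18 and 3.43), *Asf1a*, the other histone chaperone of its family (6.78 and 4.66), and *Orc4*, an origin recognition subunit (7.2 and 5.04). The direction thus differed within the ASF1 pair and between subunits of the origin recognition complex. As *Gmnn* was higher by more than *Cdt1*, the ratio of *Cdt1* to *Gmnn* was 1.33 in *Dnmt1*-WT and 1.02 in *Dnmt1*-KO. *Uhrf1*, which directs DNMT1 to newly copied DNA, was 3.62 and 5.78 FPKM, a ratio of 1.60.

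Of 34 genes of G2 phase and mitosis, 34 were higher in *Dnmt1*-KO, against 50.3% of all genes. At a ratio of 1.5 or more were 30 (88.2%), against 19.7% of all genes. Their median log2 ratio was 0.85, against 0.34 for the replication genes. Their FPKM summed to 161.79 and 304.01, while those of the replication genes summed to 324.64 and 372.69. By FPKM + 1 the highest were *Ube2c*, which serves the anaphase-promoting complex (15.43 and 39.66 FPKM), *Birc5* (4.99 and 13.28) and *Cdca8* (4.02 and 10.36), both of the chromosomal passenger complex. By plain FPKM the highest were *Aurkb*, the kinase of that complex (2.43 and 6.47), and *Birc5*, each at a ratio of 2.66. The rounding of the FPKM values does not resolve their order. By FPKM + 1 the lowest were *Mad2l1* (5.75 and 6.32) and *Ttk* (0.73 and 1.33), of the spindle checkpoint, and *Cenpf* (2.46 and 3.53), a kinetochore protein. The plain ratio of *Ttk* was 1.82, near the median of 1.83 of its list. The lists were chosen with earlier results of these data known, and the difference between them was not tested.

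Of 29 genes of G1/S control, 15 (51.7%) were higher, near the 50.3% of all genes, and 14 lower. Their median log2 ratio was 0.00, or -0.0992 with the FPKM sums set equal. By FPKM + 1 the highest were 3 inhibitors of cyclin-dependent kinases, *Cdkn1a* (14.72 and 124.9 FPKM), *Cdkn2b* (0.23 and 2.03) and *Cdkn1c* (26.99 and 58.18). By plain FPKM *E2f2* (0.62 and 1.8) and *E2f7* (0.63 and 1.58) stood above *Cdkn1c*, with ratios of 2.90 and 2.51 against 2.16. The lowest were *Tfdp2*, a partner of E2F factors (12.48 and 7.02), *Rrm2b* and *Ccnd2*, cyclin D2 (104.65 and 64.3). *Cdkn1b*, the other inhibitor of cyclin E with CDK2 in the same family as *Cdkn1a* and *Cdkn1c*, was lower, at 45.95 and 29.37 FPKM. CDKN1A also binds PCNA, and the ratio of *Pcna* to *Cdkn1a* mRNA was 2.60 in *Dnmt1*-WT and 0.364 in *Dnmt1*-KO.

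**Figure D3:**
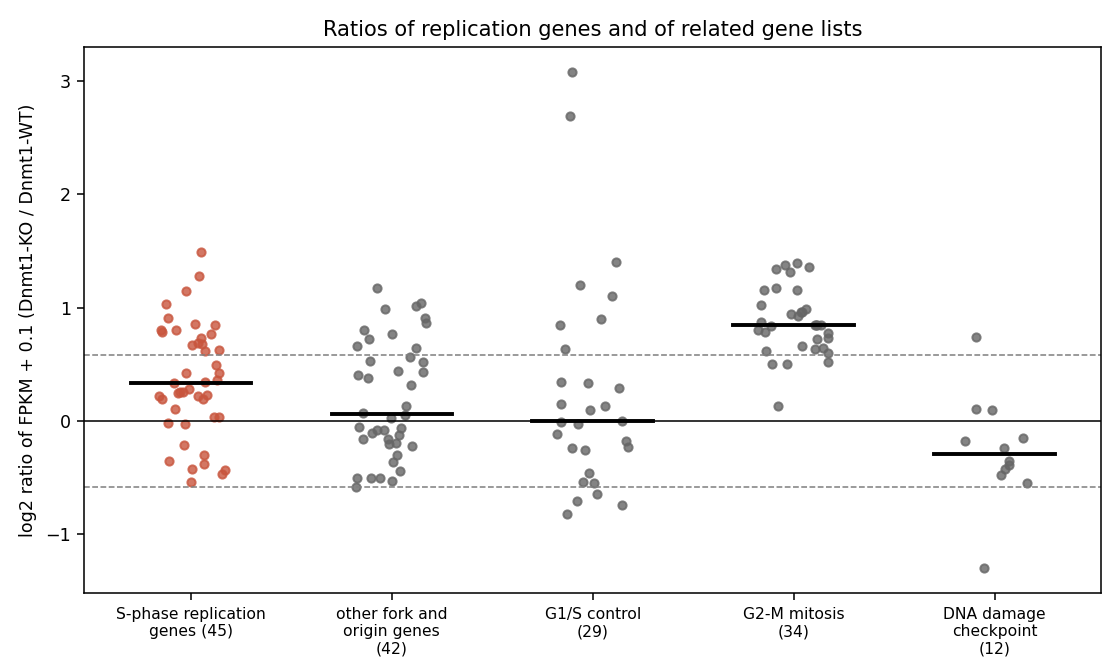
log2 ratio of FPKM + 0.1 (*Dnmt1*-KO over *Dnmt1*-WT) for each of the 45 replication genes and for each gene of 4 related lists, with bars at the medians and dashed lines at ratios of 1.5 and 1/1.5. The median is 0.34 for the replication genes and 0.85 for the genes of G2 phase and mitosis, the one list with all its points above 0. The genes and lists were chosen with earlier results of these data known.

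The wall holds other cells beside smooth muscle, and in bulk tissue fewer cells of a type and less RNA per cell cannot be told apart. All 8 smooth muscle markers were present and lower in *Dnmt1*-KO, summing to 16618 and 12061 FPKM, and *Myh11*, the smooth muscle myosin heavy chain, was 2685.29 and 1255.51 FPKM. Markers of leukocytes were higher in 8 of 8 cases (summed 29.4 and 98.1 FPKM, *Ptprc* 0.8 and 2.71) and those of macrophages in 8 of 8 (143 and 505). Those of T and B cells were higher in 7 of 7, at low sums of 1.49 and 6.39 FPKM. Markers of enterocytes were higher in 7 of 8 (477 and 1036) and of Paneth cells in 5 of 5 (14.6 and 148), while those of crypt epithelium, which divides fast, were higher in 4 of 8. The crypt markers summed to 193 and 130 FPKM, but *Smoc2* alone was 174.7 and 101.67 FPKM, and without it the other 7 summed to 17.8 and 28.3 FPKM, higher in *Dnmt1*-KO. Of the crypt markers, *Lgr5* was 0.18 FPKM in both libraries. *Epcam* (7.3 and 13.95), *Olfm4* (1.02 and 4.55), *Cdx2* (0.57 and 2.23) and *Sox9* (0.33 and 1.01) were higher in *Dnmt1*-KO, and *Axin2* (8.23 and 6.36) and *Ascl2* (0.19 and 0.03) were lower. Markers of endothelium were higher in 6 of 6 (54.4 and 115) and of fibroblasts in 5 of 6 (3088 and 4844). Those of erythroid cells were higher in 3 of 6 (89.7 and 228), a sum carried by *Hba-a2* (42.34 and 224.69, the others 47.4 and 3.16), with *Hbb-b1* at 46.41 FPKM and listed at 0, and *Hba-a1* and *Klf1* at 0 in both libraries. Interstitial cells of Cajal had 0 of 3 higher (124 and 104), enteric neurons 4 of 6 (350 and 403) and enteric glia 3 of 4 (59.2 and 88.9). Without *Uchl1* the neuron sums were 123 and 120, and without *Gfap* the glia sums were 54.5 and 53.6. Markers of several cell types thus differed in the same direction as most replication genes, and their part in the result was not tested. For scale, 50.3% of all genes above 0 FPKM in both libraries were higher in *Dnmt1*-KO.

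**Figure D4:**
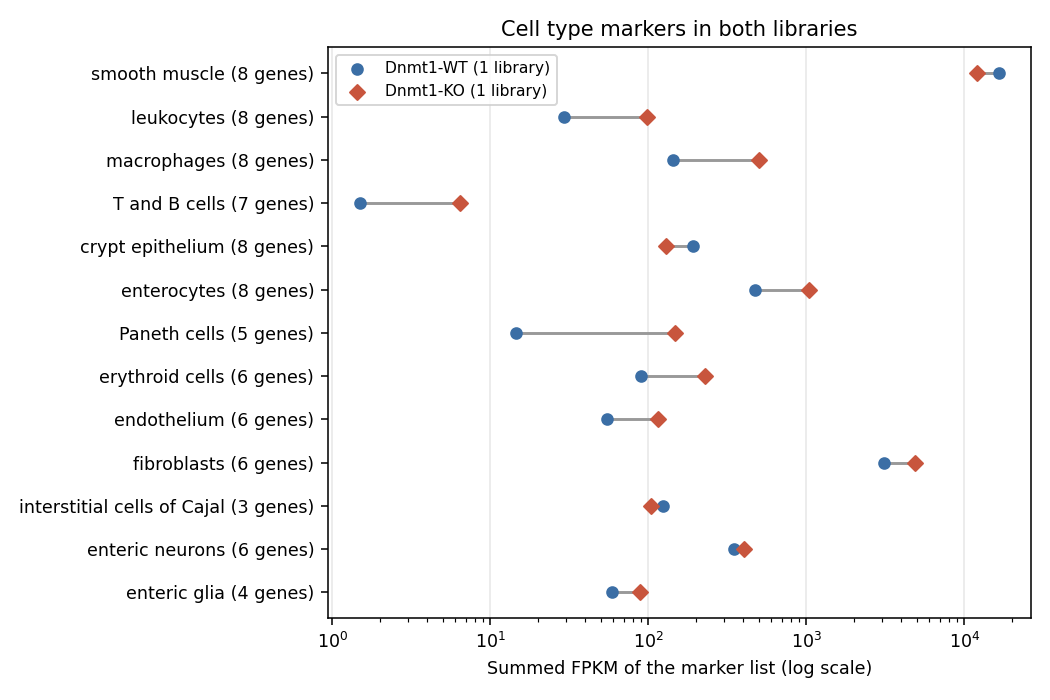
Summed FPKM, on a log scale, of the markers of each cell type in both libraries (circles *Dnmt1*-WT, diamonds *Dnmt1*-KO). Smooth muscle, crypt epithelium and interstitial cells of Cajal are the lists whose sum was lower in *Dnmt1*-KO. The direction of the sum turns without 1 gene for crypt epithelium (*Smoc2*), erythroid cells (*Hba-a2*), enteric neurons (*Uchl1*) and enteric glia (*Gfap*), and the Paneth cell sum was the one with the widest gap on this scale, at 14.6 and 148 FPKM.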

How the data were processed

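The sample records give 1 TruSeq RNA library for each genotype, and according to the paper's methods LC Sciences did the mRNA sequencing. The submitters' processing notes name TopHat 1.4.1 and Cufflinks 2.0.2 and the build mm10 (GRCm38). The deposited table lists 18159 gene symbols with an FPKM per library, to 2 decimals, computed by the authors, with the number of transcript variants in each. A further deposited column, the authors' fold change, was not used. Depth per gene is not given in that table, so no interval was computed.

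The 45 genes, their roles and all comparison lists were chosen with earlier results of these data known. Ratios are plain *Dnmt1*-KO over *Dnmt1*-WT FPKM without rescaling, and medians are of log2 ratios of FPKM + 0.1. Beside the 45 genes, the text names from each related list the top 3 and bottom 3 genes when ordered by the ratio of FPKM + 1, leaving out those under 1 FPKM in both libraries, *Dnmt1*, *Uhrf1*, 3 *Cdkn1* genes and markers. The genes overlapping a member, *Hba-a1*, *Hba-a2*, *Hbb-b1*, *Klf1*, the crypt markers beside *Lgr5* and *Epcam*, *Uchl1*, *Gfap*, *Aurkb*, *Pole3*, *Pole4*, *Pold3*, *Pold4* and the *Orc2* to *Orc5* and *E2f* genes were added after their values were seen. *Adgre1*, *Ms4a1* and *Hbb-b2* of the marker lists were not analysed here. Positions, overlaps and transcript copies came from GENCODE M21, with BLAST 2.17.0 (at least 95% identity over 200 bases), and promoters from RefSeq. Counting past a fold was tested on simulated data. Python 3.11.15, numpy 2.4.6, pandas 2.3.3 and matplotlib 3.10.9 were used. Alternatives were 5 scalings, 2 filters on low values, 2 pseudocounts, and centring on transcript length and GC content in 10 bins.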

Additional observations from a re-analysis of the deposited data

How the results depend on the processing

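No paired analysis was possible because each genotype had 1 library, which also allows no replicate to be left out. Setting the FPKM sums equal shifted all log2 ratios by -0.10, and the other scalings by 0.03. The median log2 ratio of the 45 genes stayed between 0.24 and 0.37 over all alternatives. Under the 9 that recompute every gene (scalings, pseudocounts and centrings), 33 genes were always above a ratio of 1 and 7 always below it, and the other 5 crossed 1. *Gins4* was at 1.0025, 1.00105 and 1.00264 and *Prim2* at 1.01, 1.01 and 1.01 with the median, trimmed mean and upper quartile scaling, and *Prim2* was at 1.14 and *Rpa3* at 1.00415 with GC centring. With FPKM sums set equal, with and without small RNA genes, *Mcm4* was at 0.953 and 0.957 and *Rpa2* at 0.957 and 0.961, and *Rpa2* was at 0.908 with length centring. The same sum scalings left 0 and 0 RPA genes above 1, put 1 and 1 of the 45 genes at 1/1.5 or less, and turned the medians of G1/S control (-0.0992 and -0.0933) and of other fork and origin genes (-0.0389 and -0.0330). Length centring put 2 and GC centring 1 at 1/1.5 or less. Of the 31 genes with at least 5 FPKM in one library, 23 were above 1, 8 at 1.5 or more and 2 at 2 or more. Another alternative, chosen after seeing the data, kept 29 genes. These share less than 10% of their exon bases with any other gene and have no near-identical gene. Smaller overlaps remain among them, such as that of *Tk1* with *Afmid* (1.60%). For the 29 genes these counts were 21, 11 and 3. Genes at 2 or more numbered 3 among the 42 with at least 1 FPKM in both libraries, 3 with length centring and 1 with 1 FPKM added, which also left 10 at 1.5 or more. Leaving out 1 marker, also chosen after seeing the data, turned the ratio of the summed markers in 4 of 13 lists, to 1.59 for crypt epithelium without *Smoc2*, 0.0667 for erythroid cells without *Hba-a2*, 0.980 for enteric neurons without *Uchl1* and 0.984 for enteric glia without *Gfap*. The smaller sets hold fewer genes by construction, and the cause of the other differences was not tested.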

Other observations

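Of 12 genes of the DNA damage checkpoint, 3 were higher in *Dnmt1*-KO and 9 were lower, with a median log2 ratio of -0.29. Across all genes above 0 FPKM in both libraries 50.3% were higher. At a ratio of 1/1.5 or less there was 1 of the 12, or 8.33%, against 12.6% of all genes, and the difference from the replication genes was not tested. *Chek2*, the kinase downstream of ATM, was 21.86 FPKM in the *Dnmt1*-WT and 8.83 FPKM in the other library. *Rad1*, of the clamp that signals damage, was 7.57 and 5.41 FPKM, and *Atr*, the kinase that answers stalled forks, was 2.58 and 1.73 FPKM. Among those that were higher, *Cdc25c*, the phosphatase that starts mitosis, was 1.03 and 1.79 FPKM, *Rad9a* was 19.98 and 21.37 FPKM, and *Atrip*, the partner of ATR, was 3.49 and 3.77 FPKM.

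The origin recognition complex divided by subunit. While *Orc1* and *Orc6* were higher in *Dnmt1*-KO, the other 4 subunits were lower. *Orc2* was 6.92 and 4.87 FPKM, *Orc3* 7.21 and 5.59 FPKM, *Orc4* 7.2 and 5.04 FPKM and *Orc5* 6.25 and 5.59 FPKM. In the E2F family 5 of 8 genes were higher, against 50.3% of all genes. *E2f1* is given above, and *E2f2* was 0.62 and 1.8 FPKM, *E2f3* 1.72 and 2.72 FPKM, *E2f7* 0.63 and 1.58 FPKM and *E2f8* 1.35 and 2.51 FPKM. *E2f4*, a repressor found also in resting cells, was level at 16.94 and 16.87 FPKM, and *E2f5* (6.64 and 5.66) and *E2f6* (11.76 and 8.53) were lower. The subunits and factors of these families were compared after their values were seen.

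The deposited table also gives the number of transcript variants found per gene. For 38 of the 45 replication genes (84.4%) this number was the same in both libraries, against 73.9% of all genes above 0 FPKM in both. Of the 38, 25 had 1 variant in both libraries, and the shares were not matched for the number of variants. It was lower in *Dnmt1*-KO for *Tk1*, *Orc6*, *Cdc45* and *Cdc6* and higher for *Tyms*, *Pola1* and *Ccne2*. The *Dnmt1* gene itself had 3 variants in *Dnmt1*-WT and 5 in *Dnmt1*-KO. According to the paper's supplement the *Dnmt1*-WT library had more mapped reads, and the numbers of variants were not matched for depth.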
